A study of Mus musculus with 12 samples.

Results

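The genes described here encode enzymes of 4 families. These are the UDP-glucuronosyltransferases (Ugt), the glutathione S-transferases with their membrane-bound relatives (Gst and Mgst), the sulphotransferases (Sult) and the carboxylesterases (Ces). The whole set is called conjugating enzymes here, although the Ces enzymes split esters and amides. The genes were measured in the small intestine of 12 male wildtype FVB mice on Affymetrix whole-transcript arrays, 1 array per mouse. Of these, 6 mice were fed a high-fat control diet and 6 a diet whose fat held little polyunsaturated (P) relative to saturated (S) fatty acid, called the low P/S diet here. Both diets were given for 8 weeks, and the labels also give an age of 8 weeks without saying at which point. No mouse carried a transgene per the labels, the 6 arrays of a diet are described as biological replicates, and the title of the series ties the study to cholesterol excretion through the intestine. The control diet is itself a high-fat diet, so the comparison is between 2 fat-rich diets and no mice on a low-fat diet were analysed here.

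Members were chosen by symbol. A gene belonged to the set if a probe set named it alone and its symbol began with Ugt1, Ugt2, Ugt3, Gsta, Gstm, Gstp, Gstt, Gsto, Gstk, Gstz, Mgst, Sult or Ces, followed by a digit. This gave 64 of 19937 genes, with 10 in the Ugt class, 22 in the Gst class, 16 in the Sult class and 16 in the Ces class. No probe set naming a single gene began with Ugt1, so the set holds Ugt2 and Ugt3 genes only, and 10 probe sets whose symbols fit the rule but named several genes were not used. After genes of low signal were left out (a geometric mean intensity under 85.6 over the 12 arrays), 42 of the 64 could be tested and 22 were too dim.

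Conjugating enzymes make fat-soluble compounds easier to excrete. Ugt enzymes, in the endoplasmic reticulum, transfer glucuronate from UDP-glucuronate to bilirubin, steroids, bile acids, fatty acids and drugs. Gst enzymes join glutathione to reactive electrophiles such as the aldehydes of oxidised lipids, and Sult enzymes transfer sulphate from the donor PAPS to phenols, steroids and sterols. Ces enzymes split esters and amides, among them the esters of prodrugs, triacylglycerol and cholesterol, and often supply the group that is then conjugated. In the enterocyte these enzymes stand, with efflux pumps, between the gut lumen and the portal blood.

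Array medians lay between 91.9 and 99.5 intensity units, and single values between 17.7 and 20294. The median standard error (SE) of a log2 difference between the diets was 0.061. Among all 11962 genes tested, 3074 passed an adjusted p of 0.05 in limma, which is 25.7%. Of all genes tested 17.8% were higher and 7.87% lower with low P/S feeding, and the median log2 difference was 0.02. With quantile normalization of the same values 53.5% of the calls were higher, against 69.4% as deposited, so the balance between higher and lower genes depends on the scaling. Control array 3 was the lowest of the 6 control arrays for 26 of the 42 tested members, and low P/S array 5 the highest of its group for 20. The same counts were not made over all genes, so they cannot tell the members from the array as a whole.

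Of the 42 tested conjugating enzyme genes, 15 passed, which is 35.7%, against 25.7% of all genes tested. With low P/S feeding 8 members were higher and 7 were lower among the 4 classes. All 7 Gst genes that passed were higher, both Ugt genes and both Sult genes that passed were lower, and of the Ces genes 1 was higher and 3 were lower. Differences lay between -0.62 and 0.68 on the log2 scale with a median of 0.01, and no member reached a 2-fold difference. The counts were 7 higher and 13 lower with quantile normalization, 12 higher and 5 lower without control arrays 1 and 2, and 7 higher and 9 lower without control array 3, so the balance between the directions depends on these choices. The arrays of the diets did not overlap for 7 members, which is 16.7% of those tested, against 10.8% of all genes. An unadjusted p under 0.05 was found for 23 of the 42. Beside these counts, 3 of 8 tested enterocyte markers were lower and 0 higher, with a mean log2 level per array of 12.7 to 13.2 on the control diet and 12.6 to 12.8 on the low P/S diet, and their part in the differences was not tested. In whole tissue, fewer cells of a type and less RNA per cell cannot be told apart.

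**Figure D1:**
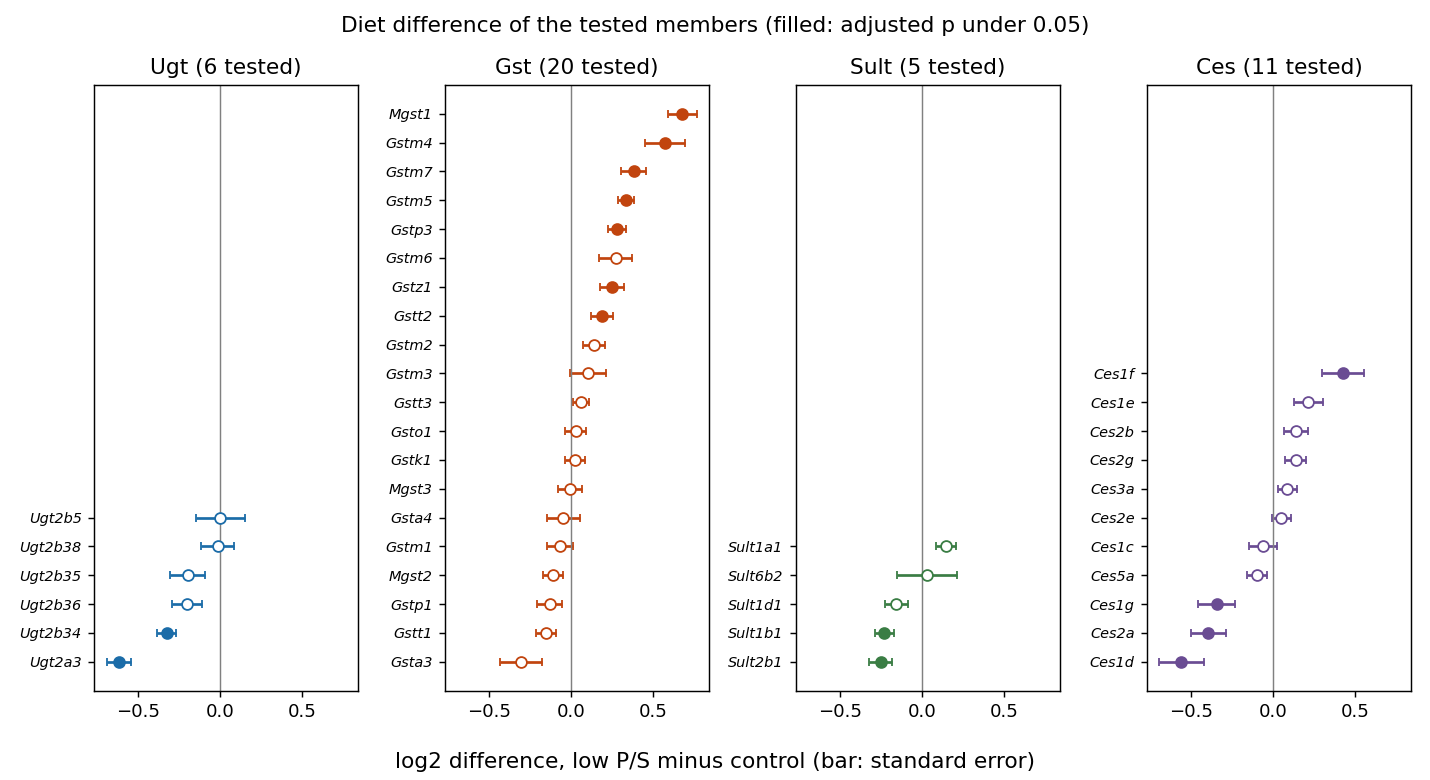
Log2 difference of each tested member between the diets (low P/S minus control, horizontal axis, bars show the SE), with 1 panel per class and filled points for an adjusted p under 0.05. All filled points of the Gst panel lie to the right of 0, between 0.19 and 0.68, and all filled points of the Ugt and Sult panels lie to the left, between -0.62 and -0.23.

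The Ugt class had 6 tested genes, all of the Ugt2 family, and 2 were lower and 0 higher on the low P/S diet; with quantile normalization Ugt2b35 and Ugt2b36 were lower as well. Ugt2a3, which glucuronidates bile acids among other substrates, measured 2465 at the lowest, 2860 at the median and 3065 at the highest of the control arrays, against 1512, 1833 and 2012 on the low P/S diet. Every control array was above every low P/S array. The log2 difference was -0.62 ± 0.07 (SE, n = 6 per diet), a level 1.53-fold lower (adjusted p = 3.63e-05). Ugt2b34, the brightest probe set of the class, measured 4359, 4792 and 5452 in the same order on the control diet and 3616, 3734 and 4095 on the low P/S diet. Its arrays did not overlap either, and the log2 difference was -0.33 ± 0.06 (adjusted p = 0.00107). Brightness differs between probe sets for reasons of design, so intensities are compared between arrays and not between genes.

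The 4 other tested Ugt2 genes did not pass. Ugt2b36 measured 479 to 634 on the control diet with a median of 544, and 374 to 592 on the low P/S diet with a median of 480. The diets overlapped, and the log2 difference was -0.20 ± 0.09 (adjusted p = 0.111). Ugt2b35 measured 397 to 564.5 with a median of 467 on the control diet and 377 to 543 with a median of 385 on the low P/S diet, a log2 difference of -0.20 ± 0.11 (adjusted p = 0.19). Here 5 of the 6 low P/S arrays were below the control median and the remaining array, number 5, stood apart at 543. Without that array both Ugt2b35 (-0.28) and Ugt2b36 (-0.27) passed. Ugt2b5 and Ugt2b38 had log2 differences of 0.00 ± 0.15 and -0.02 ± 0.10. The median difference over the 6 genes was -0.20. Ugt2b1, Ugt2b37, Ugt3a1 and Ugt3a2 were too dim to test, with group means of 41.7 to 58.5.

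Of the 20 tested genes of the Gst class 7 passed (35.0%), a share close to that of the other classes (33.3% of Ugt, 40% of Sult and 36.4% of Ces genes). All 7 were higher on the low P/S diet, where 69.4% of the calls over all genes were higher too. As a share of genes tested, 35.0% of the class was higher, against 17.8% of all genes, and 7.87% of all genes were lower. The median log2 difference over the class was 0.08. With quantile normalization Gstp1, Gstt1 and Mgst2 passed as lower and Gstt2 no longer passed. Mgst1, a membrane-bound transferase and peroxidase of the endoplasmic reticulum and outer mitochondrial membrane, measured 1264 at the lowest, 1607 at the median and 1829 at the highest of the control arrays. On the low P/S diet it measured 2276, 2413 and 2873. Every low P/S array was above every control array, and the log2 difference of 0.68 ± 0.09 was the largest of the set (1.60-fold, adjusted p = 7.24e-05).

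The mu class, cytosolic enzymes encoded by a cluster on chromosome 3, gave 3 of the 7. Gstm4 measured 287, 352 and 492 (lowest, median and highest) on the control diet and 480, 534 and 642 on the low P/S diet. The diets overlapped by a single control array, and the log2 difference was 0.57 ± 0.12 (1.49-fold, adjusted p = 0.00296). Gstm7 measured 241, 282 and 328 on the control diet and 332, 366 and 411 on the low P/S diet. Its arrays did not overlap, with a log2 difference of 0.38 ± 0.08 (adjusted p = 0.00216). Gstm5 measured 218, 230 and 243 on the control diet and 270.1, 289 and 312 on the low P/S diet. Its arrays did not overlap, with a log2 difference of 0.34 ± 0.05 (adjusted p = 0.000254).

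Outside the mu class, Gstp3, of the pi class, measured 96.9, 108 and 116 on the control diet and 122.6, 129.7 and 144 on the low P/S diet, close to the limit of low signal. Its arrays did not overlap, and the log2 difference was 0.28 ± 0.05 (adjusted p = 0.00164). Gstz1, the zeta enzyme that isomerises maleylacetoacetate in tyrosine breakdown, measured 302, 327 and 402 on the control diet and 341, 409 and 438 on the low P/S diet. The diets overlapped, and all 6 low P/S arrays were above the control median (0.25 ± 0.07, adjusted p = 0.0201). Gstt2, of the theta class, measured 183, 211 and 229 against 219 at the lowest, 232 at the median and 263 at the highest. Its arrays overlapped (0.19 ± 0.06, adjusted p = 0.044). The call of Gstt2 was the least stable of the 7 and was lost in 12 of 25 other settings, with adjusted p up to 0.105.

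The remaining 13 tested Gst genes did not pass, and they include the 3 brightest probe sets of the class. Gstm3 measured 2467, 3316 and 3990 on the control diet and 3066, 3425 and 3910 on the low P/S diet (0.10 ± 0.11, adjusted p = 0.521). Gstk1, the kappa enzyme of mitochondria and peroxisomes, measured 2295, 2602 and 2797 against 2430, 2624 and 2980 (0.02 ± 0.06, adjusted p = 0.826). Mgst2, a membrane-bound enzyme able to make leukotriene C4, measured 2372, 2660 and 2896 against 2121, 2447 and 2633 (-0.11 ± 0.06, adjusted p = 0.207). For these 3 genes the diets overlapped, and under quantile normalization Mgst2 passed as lower (-0.18) while Gstk1 changed sign to -0.04.

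Among the Gst genes nearest to passing were Gstm6 and Gstt1, with opposite signs. Gstm6 measured 272, 394 and 449 on the control diet and 402, 456.5 and 532 on the low P/S diet. All 6 low P/S arrays were above the control median (0.27 ± 0.10, adjusted p = 0.0597). Gstm6 passed in 5 of 25 other settings, and without control array 3 its difference was 0.18. Gstt1, a theta enzyme, measured 406, 458 and 491 against 375, 402 and 456, and all 6 low P/S arrays were below the control median (-0.15 ± 0.06, adjusted p = 0.0797). Of the 20 tested Gst genes 13 had a positive and 7 a negative difference. The lowest was that of Gsta3, of the alpha class that reduces lipid peroxides (-0.31 ± 0.13, adjusted p = 0.0869), named here after its value was seen; it passed as lower without control array 3, without control array 4 or without low P/S array 5. Gstt1 passed as lower without control array 3 or without low P/S array 2. Gstt4 and Gsto2 were too dim to test, with group means of 60.2 to 74.4.

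Promoter stretches of the 4 Gst genes with the largest differences are shown because 3 of them held TGACNNNGC, the core of the antioxidant response element that NRF2 binds (N is any base). Capitals mark that motif, read on either strand. Stretches are the 100 bases before an annotated start of the gene, written 5′ to 3′ on the gene's strand, from the RefSeq annotation of GRCm38.p6. For Gstm7 the 30 bases around the motif are given, since another annotated start lies nearby. Both Gstm7 and Gstm4 have an annotated start further upstream, since the genes reach to 107931877 and 108045179 on chromosome 3. The stretches of these genes thus lie inside the annotated gene, before a later start. Mgst1 is at chr6:138140427-138140526 on the plus strand, Gstm5 at chr3:107895754-107895853 on the plus strand, Gstm7 at chr3:107931724-107931753 on the minus strand and Gstm4 at chr3:108044860-108044959 on the minus strand.
Mgst1: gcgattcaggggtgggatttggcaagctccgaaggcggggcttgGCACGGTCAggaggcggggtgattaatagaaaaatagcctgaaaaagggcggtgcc
Gstm5: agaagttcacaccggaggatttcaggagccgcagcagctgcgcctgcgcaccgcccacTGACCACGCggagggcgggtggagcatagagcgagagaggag
Gstm7: tctgaagaccTGACAAAGCgaagccaatcc
Gstm4: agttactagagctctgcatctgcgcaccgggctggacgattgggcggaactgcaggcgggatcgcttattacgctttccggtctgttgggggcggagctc

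The motif lay from -56 to -48 in Mgst1, on the reverse strand, and from -42 to -34 in Gstm5. In Gstm7 it lay from -129 to -121, counted from the later start and thus inside the annotated gene. Gstm4 held none in this stretch or in the rest of its windows. Of the 6 members that were higher and had a window, 3 held the motif in a window of 300 bases (250 before the start and 50 after it). A match is only a run of letters, and no binding was measured. It stood in 0 of 6 that were lower, in 1 of 24 that were tested and did not pass (Gsta3), and in 14.0% of all 27025 genes. Over all members with a window the count was 4 of 56 (7.14%), below the share of all genes. Gstm5 and Gstm7 are neighbours of 1 gene family, so their matches may not be separate events, which was not tested. The core GCGTG bound by the aryl hydrocarbon receptor stood in 8 of 56 members (14.3%) and in 35.2% of all genes; in Gstm5 it overlaps the capitals on the reverse strand. Windows were found for 56 of the 64 members.

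**Figure D2:**
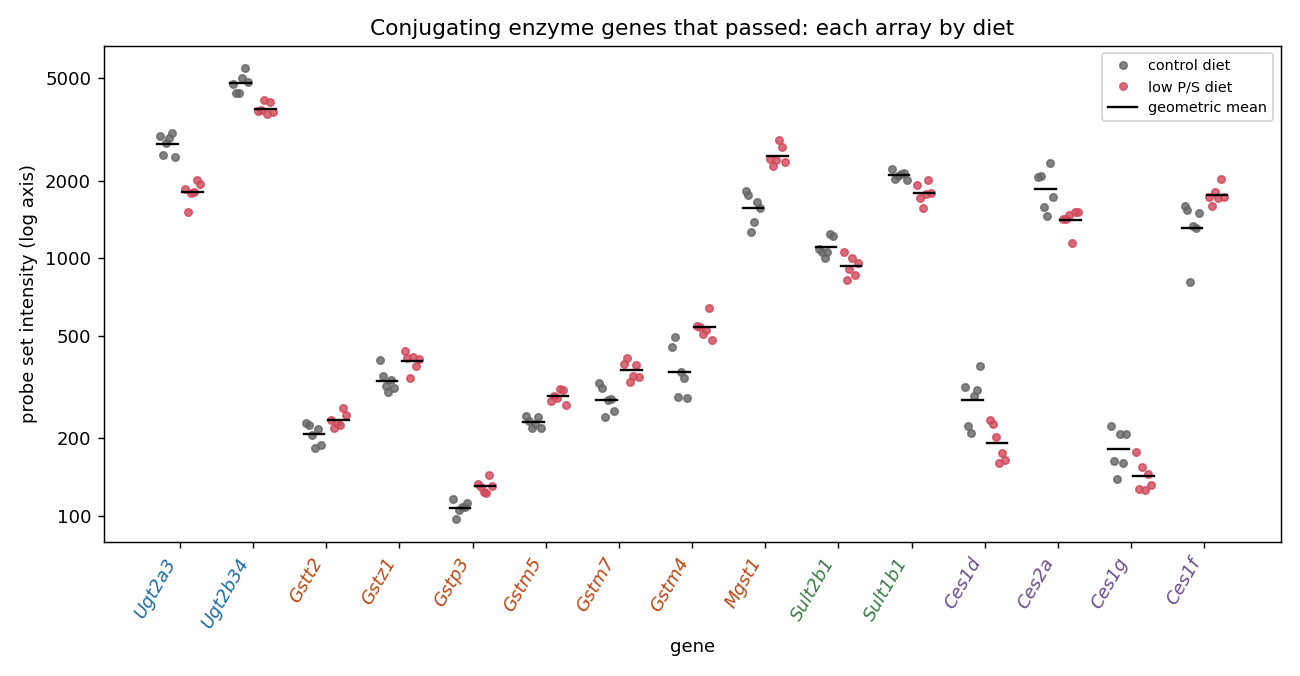
Intensity on each of the 12 arrays (points, logarithmic vertical axis) for the 15 members that passed, with grey points for the control diet, red points for the low P/S diet and a bar at each geometric mean. The diets are fully apart for 7 genes, among them Ugt2a3 (control 2465 to 3065, low P/S 1512 to 2012) and Mgst1 (control 1264 to 1829, low P/S 2276 to 2873).

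In the Sult class 5 of 16 genes were tested and 11 were too dim, with group means of 33.9 to 84.4. The dim genes included Sult1e1, the oestrogen sulphotransferase, and the 3 measured genes of the Sult2a group, which sulphates steroids and bile acids. Of the tested genes 0 were higher, 2 were lower and 3 did not pass, with a median log2 difference of -0.16; with quantile normalization Sult1d1 passed as lower and Sult1a1 as higher, and with median centring Sult1a1 passed as higher. Sult2b1, which sulphates cholesterol and other 3-beta-hydroxysteroids, measured 1004 at the lowest, 1073 at the median and 1244 at the highest of the control arrays, against 820, 930.2 and 1059 on the low P/S diet. The diets overlapped, and all 6 low P/S arrays were below the control median (-0.25 ± 0.07, 1.19-fold lower, adjusted p = 0.0159). Sult1b1, which sulphates phenols and thyroid hormones, measured 2004, 2106 and 2218 against 1565, 1787 and 2012. Here 5 of 6 control arrays were above every low P/S array (-0.23 ± 0.06, 1.17-fold lower, adjusted p = 0.00847).

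Sult1d1, an enzyme of catechols and the brightest probe set of the class, measured 2358, 2737 and 3151 on the control diet and 2185, 2530 and 2679 on the low P/S diet. The diets overlapped (-0.16 ± 0.07, adjusted p = 0.104). Sult1a1, a phenol sulphotransferase, had a positive difference that did not pass, with 89.0, 102 and 109.9 on the control diet and 105, 110.3 and 122 on the low P/S diet (0.15 ± 0.06, adjusted p = 0.086). Sult6b2 had a log2 difference of 0.03 ± 0.18, the widest error of the tested members.

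The Ces class had members of both directions, and all of its genes lie in clusters on chromosome 8. Of 11 tested genes 1 was higher, 3 were lower and 7 did not pass, with a median log2 difference of 0.05. Ces1d, a hydrolase of stored triacylglycerol, measured 209 at the lowest, 299.5 at the median and 381 at the highest of the control arrays, against 161, 188 and 235 on the low P/S diet. The diets overlapped, with 4 of 6 control arrays above every low P/S array (-0.56 ± 0.14, 1.47-fold lower, adjusted p = 0.00699). Ces2a measured 1460, 1897 and 2337 against 1146, 1444 and 1518. Here 5 of 6 control arrays were above every low P/S array (-0.39 ± 0.11, 1.31-fold lower, adjusted p = 0.0122), and without control arrays 1 and 2 the adjusted p was 0.0512.

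Ces1g, an esterase that acts on triacylglycerol and cholesteryl esters, measured 139, 185 and 223 on the control diet and 125, 138 and 177 on the low P/S diet. All 6 low P/S arrays were below the control median (-0.35 ± 0.11, adjusted p = 0.0345), but the call was lost in 11 of 25 other settings, with adjusted p up to 0.0961. Ces1f, a close relative of Ces1d, was the only Ces gene that was higher. It measured 806, 1413 and 1592 on the control diet and 1592, 1730 and 2034 on the low P/S diet. The highest control array (1592.25) and the lowest low P/S array (1592.40) nearly touched, and the log2 difference was 0.42 ± 0.13 (1.34-fold, adjusted p = 0.0233). The call of Ces1f was lost under quantile normalization (0.0536), with an ordinary variance per gene (0.079) and without low P/S array 5 (0.0529), all adjusted p in limma.

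Of the Ces genes that did not pass, Ces2e was the brightest probe set of the class, with 6073, 6979 and 7711 on the control diet and 6652, 7065 and 7602 on the low P/S diet (0.05 ± 0.06, adjusted p = 0.565). Its diets overlapped over almost the whole range. Ces1e measured 281, 391 and 428 against 396, 430 and 492 (0.22 ± 0.09, adjusted p = 0.0775), and Ces2g measured 386, 449 and 482 against 454, 475 and 564 (0.14 ± 0.06, adjusted p = 0.13). All 6 low P/S arrays of both genes were above the control median. The 5 Ces genes too dim to test had group means of 61.5 to 85.3.

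Many members are neighbours and close copies, so adjacent tested genes were compared with each other. For each pair in chromosomal order the log2 ratio of the 2 genes was taken on every array and compared between the diets by an exact two-sided permutation test over 924 arrangements, of which the smallest p is 0.00216. The choice of this test followed a look at the values. Of 22 pairs 10 differed in their response at an adjusted p of 0.05 over the pairs. The share among other pairs of genes was not computed, and successive pairs of a cluster share a gene. The count therefore does not set these clusters apart from other genes. In the Ugt2 cluster, Ugt2a3 differed from both of its tested neighbours, with a difference of 0.62 between Ugt2b5 and Ugt2a3 (exact p = 0.00649, adjusted 0.0159) and of -0.60 between Ugt2a3 and Ugt2b38 (exact p = 0.00433, adjusted 0.0119). The other end of the cluster gave no detectable difference between Ugt2b34 and Ugt2b35 (-0.13, exact p = 0.387) or between Ugt2b35 and Ugt2b36 (0.00, exact p = 0.978).

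Along the Gstm cluster the response changed within a few genes. Gstm5, Gstm7 and Gstm6, which lie side by side, had log2 differences of 0.34, 0.38 and 0.27, with pair differences of -0.04 and 0.11 (exact p = 0.539 and 0.0974). At the far end Gstm1 (-0.07) and Gstm4 (0.57) differed by -0.64 on the log2 scale (exact p = 0.00216, adjusted 0.0119). Gstm2 and Gstm1 differed by 0.21 (exact p = 0.00433, adjusted 0.0119). In the Gstt cluster, Gstt1 differed from Gstt2 by -0.34 (exact p = 0.00866, adjusted 0.019) and Gstt3 from Gstt1 by 0.21 (exact p = 0.00433, adjusted 0.0119).

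The Ces1 cluster held genes of both directions side by side. In chromosomal order Ces1c, Ces1d, Ces1e, Ces1f and Ces1g had log2 differences of -0.06, -0.56, 0.22, 0.42 and -0.35, of which those of Ces1c and Ces1e did not pass. Ces1d and Ces1e differed by -0.77 (exact p = 0.00433), Ces1e and Ces1f by -0.21 and Ces1f and Ces1g by 0.77 (both exact p = 0.00216), and all 3 had an adjusted p of 0.0119. The fourth tested pair of the cluster, Ces1c and Ces1d, differed by 0.50 and did not pass (exact p = 0.0801, adjusted 0.16). In the Ces2 cluster Ces2a (-0.39) and Ces2b (0.14) differed by -0.53 (exact p = 0.00216, adjusted 0.0119), while Ces2b, Ces2e, Ces2g and Ces3a had pair differences between -0.09 and 0.09 that did not pass. Sult1b1 and Sult1d1, neighbours on chromosome 5, did not differ detectably (-0.07, exact p = 0.219). Whether probes of 1 copy also bind transcripts of another was not tested.

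**Figure D3:**
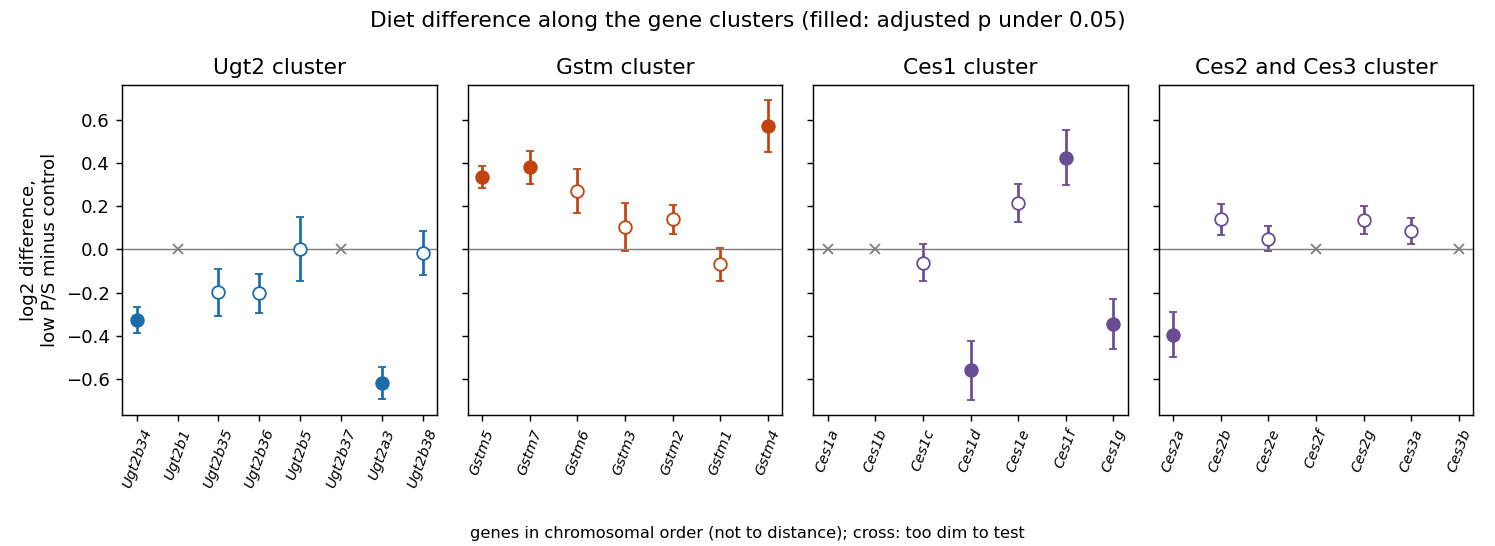
Log2 difference between the diets (vertical axis, low P/S minus control, bars show the SE) for the genes of 4 clusters in chromosomal order, not to distance, with filled points for an adjusted p under 0.05 and crosses for genes too dim to test. In the Ces1 cluster the points go from -0.56 for Ces1d up to 0.42 for Ces1f and down to -0.35 for Ces1g, and in the Ugt2 cluster Ugt2a3 lies at -0.62 beside 2 tested neighbours near 0.

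Of all tested genes 17.8% were higher and 7.87% were lower, and counts in the lists of related genes are read against these shares. A share near those says nothing particular about a list. These lists and the marker lists were chosen with earlier results of these data known. Their counts thus describe the listed genes and are no independent test of a pathway. Genes that supply the conjugated group did not move in 1 direction. Of 16 tested genes of cosubstrate supply 4 were higher, 4 were lower and 8 did not pass, with a median log2 difference of 0.00. On the UDP-glucuronate side, Ugp2, which makes UDP-glucose, was higher (0.43 ± 0.10, adjusted p = 0.0059). Slc35b1, a transporter gene placed on this list without a test of its substrate, was higher (0.27 ± 0.06, adjusted p = 0.00649). The transporter gene Slc35d1 did not pass (-0.01 ± 0.06, adjusted p = 0.939). Ugdh, which oxidises UDP-glucose to UDP-glucuronate, did not pass (-0.04 ± 0.06, adjusted p = 0.638). Both PAPS synthases were lower, with Papss1 at -0.25 ± 0.06 (adjusted p = 0.00659) and Papss2 at -0.32 ± 0.09 (adjusted p = 0.0167). Of the PAPS transporter genes, Slc35b3 was higher (0.29 ± 0.07, adjusted p = 0.00769) and Slc35b2 did not pass (-0.02 ± 0.05, adjusted p = 0.802). Sult2b1 and Sult1b1 were thus lower together with both genes that make their donor.

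Glutathione synthesis genes went apart. Gclm, the modifier subunit of glutamate-cysteine ligase, measured 895 to 1164 on the control diet and 619 to 839 on the low P/S diet. Its arrays did not overlap (-0.48 ± 0.08, adjusted p = 0.000677). Gclc, the catalytic subunit, was lower as well (-0.27 ± 0.09, adjusted p = 0.029), a call lost in 8 of 25 other settings. Gss, which completes glutathione, was higher (0.24 ± 0.07, adjusted p = 0.0189), and Gsr, which reduces oxidised glutathione, did not pass (0.08 ± 0.06, adjusted p = 0.352). The 7 Gst genes that passed were thus higher while both subunits of the ligase were lower.

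Among other conjugating and hydrolysing enzymes 4 of 11 tested genes were higher, 0 were lower and 7 did not pass, with a median log2 difference of 0.10. Aadac, a deacetylase of the endoplasmic reticulum, had a difference of 0.52 ± 0.08 (adjusted p = 0.000373) and Nceh1, a neutral cholesteryl ester hydrolase of the same family, of 0.45 ± 0.10 (adjusted p = 0.00364). Both were higher, as was Ces1f (0.42), while 3 Ces genes were lower. Gusb, which removes glucuronate in lysosomes, was higher too (0.29 ± 0.06, adjusted p = 0.00411). Tpmt, a methyltransferase of thiopurines, passed narrowly (0.23 ± 0.08, adjusted p = 0.0493) and lost the call in 14 of 25 other settings.

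Of the 5 tested target genes of the xenobiotic receptors PXR and CAR 4 were lower and 0 higher, with a median log2 difference of -0.54. Cyp2b10 measured 3115 to 4680 on the control diet and 1778 to 2951 on the low P/S diet, with no overlap (-0.71 ± 0.11, adjusted p = 0.000453). Cyp3a11 (-0.54 ± 0.11, adjusted p = 0.00221), Cyp2c55 (-0.59 ± 0.15, adjusted p = 0.00986) and Cyp3a13 (-0.36 ± 0.09, adjusted p = 0.00692) were lower too, and Cyp3a25 did not pass (-0.12 ± 0.09). The receptor genes themselves, Nr1i2 for PXR (0.11 ± 0.07, adjusted p = 0.29) and Nr1i3 for CAR (-0.09 ± 0.09, adjusted p = 0.461), did not pass.

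The targets of NRF2, the factor of the antioxidant response element, went in both directions. Of 5 tested genes 1 was higher, 2 were lower and 2 did not pass. The higher gene was Txnrd1, a thioredoxin reductase (0.26 ± 0.09, adjusted p = 0.0443), a call lost in 11 of 25 other settings, and the lower ones were Gclc and Gclm. Nqo1, a quinone reductase, had a positive difference that did not pass (0.30 ± 0.11, adjusted p = 0.0532), and it passed as higher in 7 of 25 other settings. Nfe2l2, the gene of NRF2, was higher (0.20 ± 0.07, adjusted p = 0.041), and this call too was lost in 11 of 25 other settings. The 2 tested targets of the aryl hydrocarbon receptor, Cyp1b1 and Tiparp, did not pass.

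Of 15 tested regulators 3 were higher, 4 were lower and 8 did not pass, with a median log2 difference of 0.05. The lower ones included the 3 PAR bZIP factors, outputs of the circadian clock known to control detoxification genes. Dbp measured 480 to 1108 on the control diet and 114 to 335 on the low P/S diet, with no overlap (-2.04 ± 0.25, adjusted p = 4.9e-05). Tef (-1.01 ± 0.12, adjusted p = 5.07e-05) and Hlf (-0.52 ± 0.13, adjusted p = 0.00732) were lower as well, and so was the coactivator gene Ppargc1a (-0.77 ± 0.12, adjusted p = 0.000463). The higher ones, beside Nfe2l2, were Nr1h4, the bile acid receptor FXR (0.43 ± 0.10, adjusted p = 0.00403), and the intestinal factor Cdx2 (0.16 ± 0.05, adjusted p = 0.0228). The time of dissection is not given in the labels, and the part of the clock outputs in the differences of the conjugating enzymes was not tested.

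The list of transporters around the enterocyte holds carriers of conjugates and also a drug pump and a prostaglandin carrier, which were its 2 lower genes. Of 10 tested 4 were higher, 2 were lower and 4 did not pass, with a median log2 difference of 0.08. Slc51b, a subunit of the basolateral organic solute transporter, measured 305 to 628 on the control diet and 661 to 1109 on the low P/S diet, with no overlap (0.94 ± 0.16, adjusted p = 0.000772). Abcg2, an apical pump of sulphate conjugates (0.49 ± 0.10, adjusted p = 0.00171), Abcc3, a basolateral pump of glucuronides (0.47 ± 0.10, adjusted p = 0.00294), and the uptake carrier gene Slco2b1 (0.28 ± 0.07, adjusted p = 0.0128) were higher. Abcb1a, the apical drug pump, was lower (-0.58 ± 0.13, adjusted p = 0.00404), as was the prostaglandin carrier gene Slco2a1 (-0.84 ± 0.07, adjusted p = 1.06e-06). Abcc2, the apical pump of glucuronides and glutathione conjugates, did not pass (-0.21 ± 0.08, adjusted p = 0.0621), and passed as lower in 4 of 25 other settings.

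**Figure D4:**
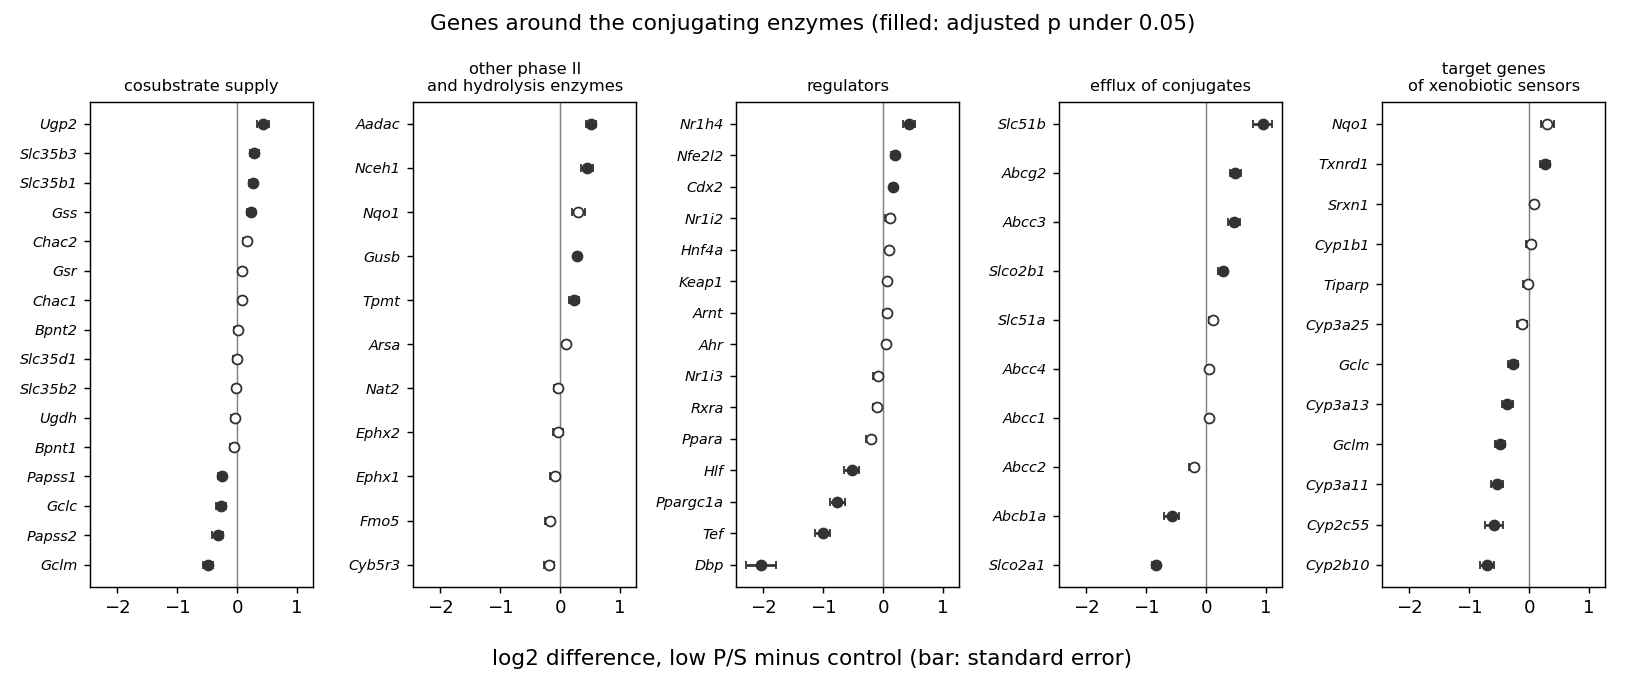
Log2 difference between the diets (horizontal axis, low P/S minus control, bars show the SE) for the tested genes of 5 lists around the conjugating enzymes, with filled points for an adjusted p under 0.05. Dbp lies farthest to the left at -2.04 and Slc51b farthest to the right at 0.94, and 4 of the 5 targets of PXR and CAR are filled points to the left of 0.

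Marker genes gave the cell types beside which these differences stand. All 8 enterocyte markers were above the limit of low signal, and the 3 lower ones were Vil1 (-0.30), Sis (-0.37) and Anpep (-0.63). The others, Alpi (0.01), Fabp2 (-0.01), Apoa1 (-0.20), Apoa4 (-0.05) and Mttp (0.18), did not pass. Counts of higher and lower markers were 2 and 0 of 6 for goblet cells (11.1 to 11.7 against 11.6 to 11.9) and 3 and 0 of 4 for enteroendocrine cells. They were 2 and 0 of 4 for crypt and dividing cells and 2 and 0 of 3 for macrophages. In the crypt list the higher genes were those of dividing cells, Mki67 (0.43) and Top2a (0.45), while Lgr5 (-0.14) and Olfm4 (-0.004) did not pass. For Paneth cells (4 tested), smooth muscle (5), liver (2), pancreas (2) and adipose tissue (3) no marker passed, and the 3 tuft cell markers were too dim. Segment markers went both ways, with 3 higher and 1 lower of 8 for the proximal and 1 higher and 1 lower of 4 for the distal intestine. The proximal ones were Cldn2 (0.77), S100g (0.46) and Fabp1 (0.21), higher, and Lct (-0.95), lower. The distal ones were Slc10a2 (0.58), higher, and Cubn (-2.19), lower. Alb, the main liver transcript, had geometric means of 217 and 219. The part of goblet, enteroendocrine, crypt and macrophage content in the differences of the conjugating enzymes was not tested.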

How the data were processed

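The authors deposited 1 intensity value per probe set and array, on a linear scale, for 34760 probe sets of an Affymetrix array, from 500 ng of total RNA per the labels. The summarization and normalization of the values are not given in the sources used here, so small differences shared by many genes depend on an unknown scaling. Of the probe sets 21640 named 1 gene in the platform annotation, 1321 named several and 11799 named none, and only the first kind was used. Where a gene had several, the brightest by its mean over the 12 arrays was taken, which was a choice for 954 genes and for 2 members. The log2 of the deposited value was fitted with limma 3.58.1 in R 4.3.3 (lmFit and eBayes, two-sided, diet as the only term). Genes under the 40th percentile of mean level were left out. The Benjamini-Hochberg adjustment ran over all 11962 remaining genes, and 0.05 was the threshold. The number of arrays limits the precision. The steps were tested on simulated data. Pair tests and motif searches used Python 3.11.15. Members and gene lists (cosubstrate supply, other conjugating and hydrolysing enzymes, regulators, efflux, targets of xenobiotic sensors, and cell type and segment markers) were chosen with earlier results of these data known; the adipose list and the pair tests were added after values were seen. Named were, per class, members that passed, the 3 of highest mean level and the 2 of smallest adjusted p that did not pass. Some symbols of the lists were not analysed here, the identity of the proteins was not used here, and a motif search planned with the others is not reported here. Replicate numbers are shared between the diets in the labels, but arrays of the same number deviated together in 3 of 6 cases only (correlations of -0.11 to 0.42), so they were not treated as pairs. Alternatives were another scaling, filter, probe set choice, offset, weighting, variance prior and block, and leaving out arrays.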

Additional observations from a re-analysis of the deposited data

Results flagged for a closer look

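Among the 27 members named by rule, the 6 arrays of each diet were checked for an array far from the rest, which gives 54 groups. In 5 of them the gap from the outermost array to its nearest neighbour exceeded, as a share of the group's range, Dixon's critical value for 6 samples, and chance sets about 5% of such groups apart. In Ces1f, control array 3 was the lowest at 805.56, with the next control array at 1311. In Gstm6, the same control array was the lowest at 272, with the next at 379. In Ces2a, low P/S array 4 was the lowest at 1146.02, with the next at 1420. In Ces2g, low P/S array 5 was the highest at 563.538, with the next at 488, and in Ugt2b35 the same array was the highest at 542.644, with the next at 413. Ces1f and Ces2a passed in the fit to all arrays, and without the array that stood apart both still passed, with the log2 difference of Ces1f at 0.28 in place of 0.42.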

How the results depend on the processing

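Ugt2a3, Ugt2b34, Mgst1, Gstm4, Gstm5, Gstm7, Sult1b1, Sult2b1 and Ces1d kept their direction and passed in all 25 other settings, and Gstp3 in all 24 in which it was tested. Over the single arrays left out, members that were higher numbered 6 to 10 (8 with all arrays) and members that were lower 6 to 9 (7 with all arrays). With an ordinary variance per gene 5 members were higher. With quantile normalization 13 were lower, with Gstp1, Gstt1, Mgst2, Sult1d1, Ugt2b35 and Ugt2b36 added, and over all genes 1775 were higher and 1543 lower against 2132 and 942. Without control arrays 1 and 2 the counts were 12 higher and 5 lower. Gstk1 (0.02) changed sign to -0.044 with quantile normalization, and lay between -0.015 and 0.044 over the arrays left out, with -0.014 without control array 3 and -0.015 without low P/S array 1. Ahr and Hnf4a changed sign with quantile normalization (-0.0019 and -0.011). No calls were involved, and the cause was not tested. With the number as a replicate block 16 members passed, namely all 15 of the fit without it and Gstm6 (adjusted p = 0.0101), and Abcc2 passed as lower (adjusted p = 0.0108). Over all genes 2454 were higher and 1076 lower with the block, against 2132 and 942 without it.

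In the lists around the set, the lower cosubstrate genes numbered 2 with an ordinary variance per gene (4 in the fit to all arrays). The lower genes among other conjugating and hydrolysing enzymes numbered 2 with quantile normalization and 1 with the replicate block, and 0 to 1 over the arrays left out. The higher regulators numbered 1 with quantile normalization and 1 to 3 over the arrays left out, the 1 being without low P/S array 5. The higher targets of xenobiotic sensors, 1 in the fit to all arrays, numbered 0 with quantile normalization, with median centring, with no filter and with an ordinary variance per gene, 2 with the filter at the 60th percentile, with array weights and without control arrays 1 and 2, and 0 to 2 over the arrays left out. With 6 arrays a diet and a median SE of 0.061, differences of the size of that error were not detectable.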
